A study of Mus musculus with 3 samples.

Results

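The genes described here are the 8 subunits of the condensin complexes together with Top2a and Mki67, 10 of the 46078 genes in the deposited table. They were taken by symbol as a named set, and each symbol matched 1 row. RNA of RAW 264.7 cells, a mouse macrophage line from a tumour induced by Abelson murine leukemia virus, was sequenced in 3 libraries. The control library came from untreated cells, the HU library from cells given 0.5 mM hydroxyurea (HU), and the third from cells given 0.5 mM HU and gold nanocages at the same moment. RNA was taken after 12 hours from cells at passage 10 to 15 in medium with 10% serum. A library of cells given nanocages without HU was not analysed here, and the dose of the nanocages is not given in the sources used here.

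Condensins are ring-shaped ATPase complexes that fold DNA into loops and compact chromosomes for cell division. The SMC proteins encoded by Smc2 and Smc4 form the core of both complexes. Condensin I adds the products of Ncapd2, Ncapg and Ncaph and reaches the chromosomes after the nuclear envelope breaks down, whereas condensin II adds those of Ncapd3, Ncapg2 and Ncaph2 and is nuclear throughout the cell cycle. Top2a encodes topoisomerase II alpha, which removes the entanglements of sister DNA molecules, and Mki67 encodes Ki-67, a protein that coats mitotic chromosomes and marks cycling cells. HU inhibits ribonucleotide reductase and so stalls DNA replication.

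Each condition is 1 library, so no difference below has a check against the spread between cultures, and no p-value was computed. Ratios between libraries are plain ratios of CPM, the read count scaled by the summed count of its library. Their exact 95% intervals come from the 2 read counts and cover the counting error of independent reads and nothing else. Reads without molecular identifiers are not independent molecules, so the intervals can be too narrow. A gene is called outside counting error where that interval excludes 1. Counted reads per library totalled 14990564 (control), 20057329 (HU) and 18644333 (HU with nanocages), and the 10 genes had between 1527 and 10011 reads per library. The 8 macrophage markers examined were all measured, with Lyz2 at 1283 to 1452 FPKM, and none of 19 markers of fibroblasts, T cells, B cells, epithelium or endothelium reached a mean of 1 FPKM. T cell and epithelial markers had no reads.

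RefSeq promoter windows of build GRCm38.p6 were found for 9 of the 10 genes, and Smc4 had none. Each window runs from 250 bases before the transcript start to 50 bases after it. Windows were searched on both strands for the cell cycle genes homology region (CHR, TTTGAA or TTTAAA), for the CCAAT box, which NF-Y binds, and for the E2F words TTTGGCGC, TTTCCCGC, TTTCGCGC and TTTGCCGC. The CHR is known as the site through which MuvB complexes repress and later activate late cell cycle genes. The 250 bases before the start follow for Top2a, Mki67 and the 6 subunits specific to condensin I or II, so that windows with and without these words can be compared, 5′ to 3′ on the gene's strand, with matches to any of these words in capitals.

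Top2a (chr11:99024190-99024439, minus strand): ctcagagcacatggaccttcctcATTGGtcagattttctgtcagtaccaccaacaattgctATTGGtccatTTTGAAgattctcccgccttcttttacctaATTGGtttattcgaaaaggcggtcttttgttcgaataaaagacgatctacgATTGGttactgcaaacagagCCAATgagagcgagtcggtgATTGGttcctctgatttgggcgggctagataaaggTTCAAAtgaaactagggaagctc
Mki67 (chr7:135716380-135716629, minus strand): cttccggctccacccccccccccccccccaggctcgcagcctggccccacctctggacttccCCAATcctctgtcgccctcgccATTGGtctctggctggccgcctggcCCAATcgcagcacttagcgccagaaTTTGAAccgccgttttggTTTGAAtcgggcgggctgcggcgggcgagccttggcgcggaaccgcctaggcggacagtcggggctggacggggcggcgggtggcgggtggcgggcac
Ncapd2 (chr6:125191587-125191836, minus strand): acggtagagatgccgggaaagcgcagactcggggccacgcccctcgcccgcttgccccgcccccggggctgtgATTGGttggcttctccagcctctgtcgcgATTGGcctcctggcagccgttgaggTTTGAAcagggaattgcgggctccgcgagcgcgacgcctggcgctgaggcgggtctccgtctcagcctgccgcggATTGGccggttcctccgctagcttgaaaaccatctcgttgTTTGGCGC
Ncapg (chr5:45669675-45669924, plus strand): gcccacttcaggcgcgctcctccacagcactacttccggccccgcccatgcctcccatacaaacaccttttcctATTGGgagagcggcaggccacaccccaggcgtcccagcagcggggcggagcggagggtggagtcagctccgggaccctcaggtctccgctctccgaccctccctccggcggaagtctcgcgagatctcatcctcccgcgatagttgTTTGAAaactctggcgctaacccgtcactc
Ncaph (chr2:127133955-127134204, minus strand): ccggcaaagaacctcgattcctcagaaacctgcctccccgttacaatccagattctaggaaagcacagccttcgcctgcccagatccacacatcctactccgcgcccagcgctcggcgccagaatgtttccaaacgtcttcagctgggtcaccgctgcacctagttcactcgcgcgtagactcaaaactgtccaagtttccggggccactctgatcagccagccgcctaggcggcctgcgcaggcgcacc
Ncapd3 (chr9:27029915-27030164, plus strand): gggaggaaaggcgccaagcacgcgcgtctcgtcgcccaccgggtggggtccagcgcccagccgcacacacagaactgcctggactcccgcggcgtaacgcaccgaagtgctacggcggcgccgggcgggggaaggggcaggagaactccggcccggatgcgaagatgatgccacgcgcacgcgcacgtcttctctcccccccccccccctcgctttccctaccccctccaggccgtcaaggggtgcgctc
Ncapg2 (chr12:116405186-116405435, plus strand): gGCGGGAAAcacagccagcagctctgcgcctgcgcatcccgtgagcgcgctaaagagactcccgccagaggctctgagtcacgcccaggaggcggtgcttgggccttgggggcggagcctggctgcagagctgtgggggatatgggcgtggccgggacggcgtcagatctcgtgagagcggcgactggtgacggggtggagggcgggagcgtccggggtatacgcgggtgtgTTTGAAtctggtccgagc
Ncaph2 (chr15:89355469-89355718, plus strand): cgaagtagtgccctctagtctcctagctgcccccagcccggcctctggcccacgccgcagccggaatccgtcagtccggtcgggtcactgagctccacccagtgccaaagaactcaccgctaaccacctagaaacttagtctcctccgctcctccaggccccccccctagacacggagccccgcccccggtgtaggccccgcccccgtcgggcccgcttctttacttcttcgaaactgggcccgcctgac

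The Top2a window held 6 CCAAT boxes and 2 CHR words, the second at position -23 with the start base as 0. The Mki67 window held 3 CCAAT boxes followed by 2 CHR words at positions -116 and -98. In Ncapd2, 3 CCAAT boxes, a CHR word at -123 and an E2F word directly before the start were found, and in Ncapg a CCAAT box, a CHR word at -30 and an E2F word after the start. Ncaph, Ncapd3 and Ncaph2 held none of the words, and Ncapg2 held a CHR word and 2 E2F words but no CCAAT box. Smc2, Ncapd2, Ncapg, Top2a and Mki67, each with a CHR word and a CCAAT box, were 1.16-fold to 1.59-fold lower in HU than in control. Of the genes without any word, Ncaph and Ncapd3 were 1.30-fold and 1.08-fold lower, and Ncaph2 was within counting error. Ncapg2, with a CHR word but no CCAAT box, was within counting error as well. A link between the words and the levels was not tested.

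Of the 9 windows, 6 held a CHR word, beside 27.6% of all 32851 windows of this length, and 5 held a CCAAT box, beside 37.4%. The 5 with a CCAAT box, Smc2, Ncapd2, Ncapg, Top2a and Mki67, held a CHR word as well, a pairing present in 10.7% of all windows. An E2F word was found in 3 windows, beside 2.26% of all. Those windows, of Ncapd2, Ncapg and Ncapg2, were 64.3%, 65.0% and 68.0% G or C, beside a median of 52.7% over all windows. The shares were not adjusted for this. The 32851 windows cover 27025 gene symbols, so some genes count more than once among them, whereas each of the 9 genes counts once. Every CHR match in the 9 windows was TTTGAA, and none of the 27 matches overlapped another. The window of Ncapd2 starts from a RefSeq position 115 bases from the gene's GENCODE start, and for the other 8 genes the 2 starts lay 0 to 34 bases apart. A match is a description of letters, and no binding was measured.

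**Figure D1:**
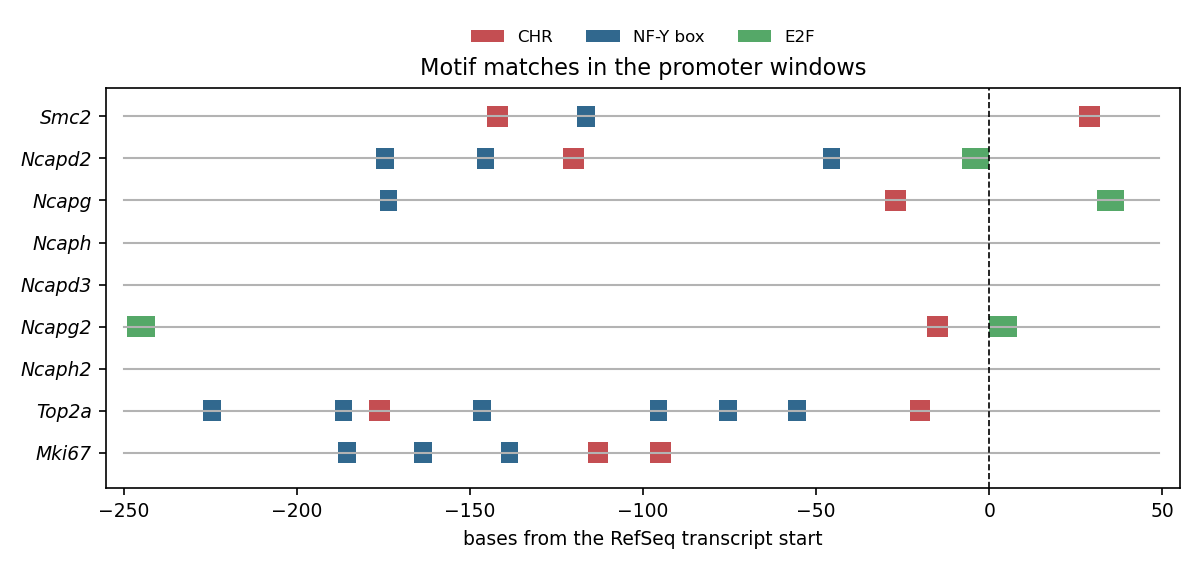
Positions of motif matches in the promoter windows of 9 genes, in bases from the RefSeq transcript start (dashed line). Bars mark CHR, NF-Y box (CCAAT) and E2F matches on either strand. Smc2, Ncapd2, Ncapg, Top2a and Mki67 show both CHR and NF-Y box matches, and Ncaph, Ncapd3 and Ncaph2 show none.

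All 10 genes were well expressed in untreated cells. FPKM, the count scaled by both exonic length and summed count, allows levels of different genes to be compared. In control, Top2a was highest at 72.3 FPKM and Mki67 second at 66.3 FPKM, which placed them above 92.2% and 91.4% of the 10849 genes with a mean of at least 1 FPKM. Ncapd2 led the condensin subunits at 47.1 FPKM. Smc4 (39.6 FPKM), Smc2 (39.1), Ncaph2 (37.0) and Ncapd3 (35.9) followed, and neighbours in this order were not distinguishable by their counting intervals. Ncaph was lower at 27.9 FPKM, Ncapg2 at 22.5 and Ncapg lowest at 16.1, so the condensin subunits spanned 2.93-fold in control. In HU they ranged from 10.8 to 36.5 FPKM and with nanocages from 12.3 to 36.8.

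The first comparison, HU against control, bears on the response to the drug. Of the 10 genes, 8 were lower than counting error in HU and none was higher, beside 20.1% of all 10849 genes lower and 18.7% higher. Among the 2874 genes with at least as many reads on average as Ncapg, 28.6% were lower and 25.2% higher. The median log2 ratio of the 10 genes was -0.37, beside -0.01 for all genes. A difference of at least 1.5-fold was reached by Mki67 alone, beside 3.12% of all genes lower by that much and 4.53% higher. In bulk RNA, fewer cells in the phases that express a gene and less of its RNA per cell cannot be told apart.

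**Figure D2:**
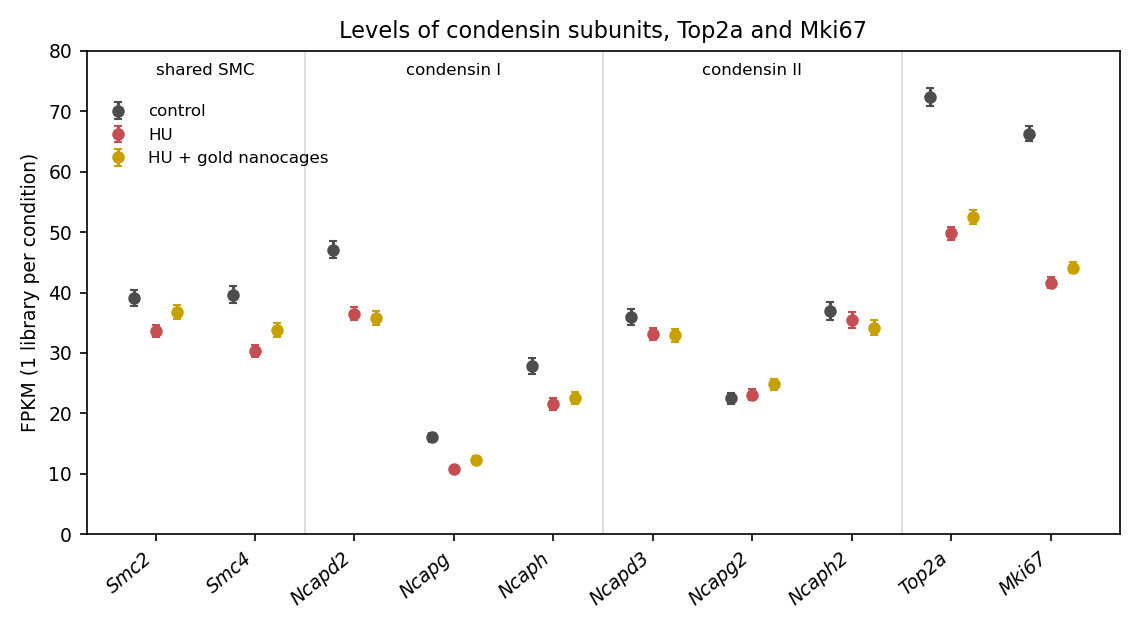
FPKM of the 10 genes in the 3 libraries (1 library per condition), with error bars for the exact 95% Poisson interval of the read count. Control lies above HU for every gene except Ncapg2, and the gap is widest for Top2a and Mki67.

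The core subunits were lower in HU, Smc4 more than Smc2. Smc2 had 39.1 FPKM in control, 33.6 in HU and 36.8 with HU and nanocages. Control was highest and HU lowest, and the HU level was 1.16-fold below control (95% counting interval 1.11 to 1.22). Smc4 had 39.6 FPKM in control, 30.3 in HU and 33.8 with nanocages, in the same order. It was 1.31-fold lower in HU than in control (1.24 to 1.37). The number of Smc4 reads per Smc2 read was 0.963 in control and 0.857 in HU, 1.12-fold lower (1.05 to 1.20), a ratio in which the library scale cancels. The 2 proteins pair in equal number, but their RNAs moved by different amounts.

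All 3 subunits specific to condensin I were lower in HU. Ncapd2, a HEAT-repeat subunit, had 47.1 FPKM in control, 36.5 in HU and 35.8 with nanocages, so the treated libraries were alike and both under control. Its HU level was 1.29-fold lower (1.24 to 1.34). Ncapg, the other HEAT-repeat subunit, had 16.1 FPKM in control, 10.8 in HU and 12.3 with nanocages. It was 1.49-fold lower in HU (1.39 to 1.60), the largest difference of any condensin gene and just short of 1.5-fold. Ncaph, the kleisin subunit that closes the ring, had 27.9, 21.5 and 22.6 FPKM in control, HU and HU with nanocages. It was 1.30-fold lower in HU (1.21 to 1.38).

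The 3 subunits specific to condensin II lay close to control. Ncapd3 had 35.9 FPKM in control, 33.1 in HU and 32.9 with nanocages, and was 1.08-fold lower in HU (1.03 to 1.14), the least of the 8 lower genes. Ncapg2 had 22.5, 23.1 and 24.8 FPKM in the same order, and its ratio of HU to control, 1.03 (0.974 to 1.09), was within counting error. Ncaph2, the kleisin of condensin II, had 37.0, 35.4 and 34.2 FPKM, and its ratio of 0.958 (0.907 to 1.01) was also within counting error. These intervals leave room for a decrease of Ncaph2 to 0.907 of control and of Ncapg2 to 0.974.

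**Figure D3:**
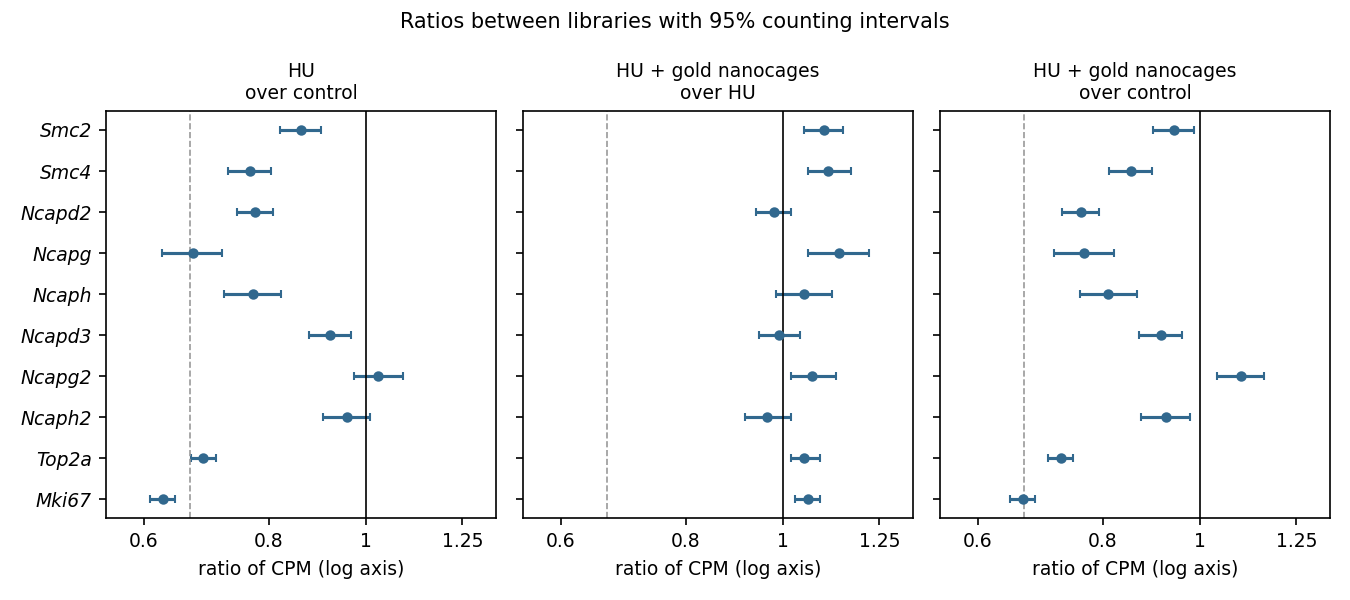
Ratios of CPM between libraries for the 10 genes on a log axis, with exact 95% counting intervals, for HU over control (left), HU with nanocages over HU (middle) and HU with nanocages over control (right). The solid line marks a ratio of 1 and the dashed line a 1.5-fold decrease. The ratio of Mki67 passed the dashed line in both comparisons with control, but with nanocages its interval includes that line.

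Condensin I-specific RNA was thus lower relative to condensin II-specific RNA in HU. The condensin I-specific genes had 7924 reads in control, 7971 in HU and 7615 with nanocages. The condensin II-specific genes had 7517, 9703 and 9098 reads in the same libraries. Condensin I supplied 51.3% of these reads in control (exact 95% interval 50.5 to 52.1), 45.1% in HU (44.4 to 45.8) and 45.6% with nanocages (44.8 to 46.3). The interval of control lay above those of the 2 treated libraries. The ratio of condensin I to condensin II reads was 1.28-fold lower in HU than in control (1.23 to 1.34), and the library scale cancels in it.

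Each pair of related subunits shared this direction. The ratio of Ncapg to Ncapg2 reads was 0.764 in control and 0.498 in HU, 1.53-fold lower (1.40 to 1.68). The ratio of Ncaph to Ncaph2 reads was 1.24-fold lower (1.14 to 1.35), and that of Ncapd2 to Ncapd3 reads was 1.19-fold lower (1.12 to 1.27). Summed by length, condensin I-specific genes had 91.0 FPKM in control and 68.8 in HU, and condensin II-specific genes 95.4 and 91.7. The levels of the 2 groups were therefore similar in control and apart in HU.

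**Figure D4:**
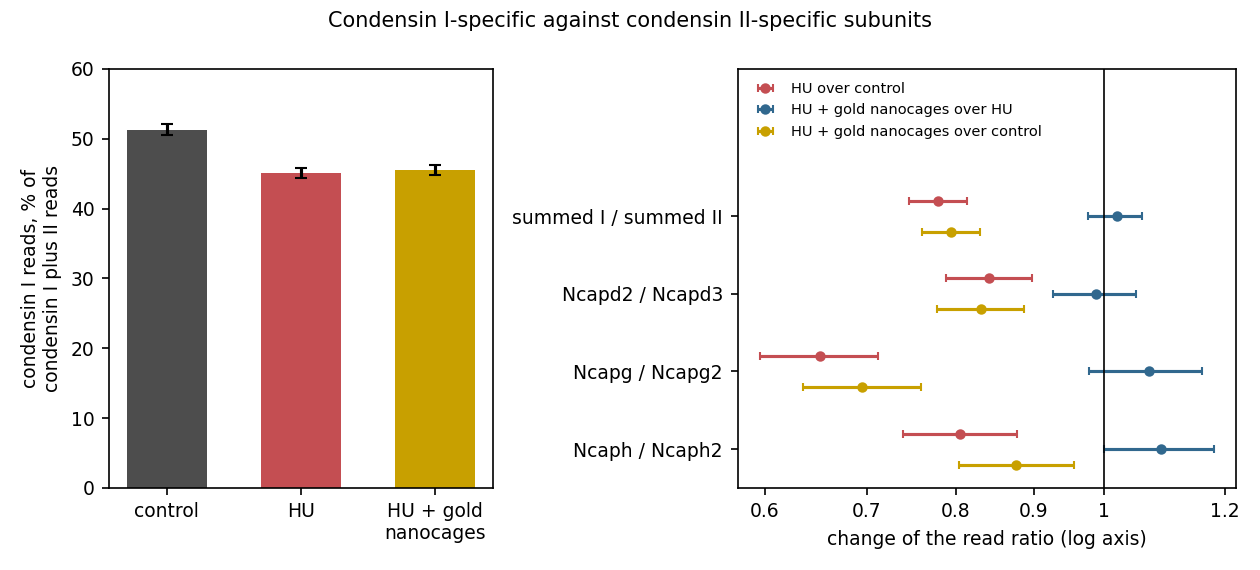
Left, the condensin I-specific share of reads among condensin I-specific and II-specific genes in each library, with exact 95% intervals. Right, the change of the condensin I to condensin II read ratio between libraries, summed and for each pair of related subunits, on a log axis with exact 95% intervals; the comparisons with control lie below 1 in all 4 rows.

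Top2a and Mki67 showed larger differences than most condensin genes. Top2a had 9771 reads in control, 8996 in HU and 8822 with nanocages, or 72.3, 49.8 and 52.5 FPKM. Control stood well above the treated libraries, and HU was 1.45-fold lower than control, a ratio of 0.688 (0.669 to 0.708). Mki67 had 10011, 8398 and 8285 reads, or 66.3, 41.6 and 44.1 FPKM. It was 1.59-fold lower in HU (1.55 to 1.64), the largest difference of the 10. The log2 ratio of Mki67, -0.67, lay at percentile 2.26 of all genes, and that of Top2a, -0.54, at percentile 3.54.

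Mki67 was also lower relative to Top2a, and Top2a was lower relative to the condensins. Mki67 reads per Top2a read were 1.02 in control and 0.934 in HU, 1.10-fold lower (1.05 to 1.14). Top2a reads per condensin read, summed over the 8 subunits, were 0.449 in control and 0.367 in HU, 1.23-fold lower (1.18 to 1.27). Top2b, which encodes the topoisomerase II of non-dividing as well as dividing cells, had 25.7 FPKM in control, 24.6 in HU and 25.9 with nanocages. The ratio of Top2a to Top2b reads was 3.98 in control and 2.86 in HU, 1.39-fold lower (1.31 to 1.48).

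**Figure D5:**
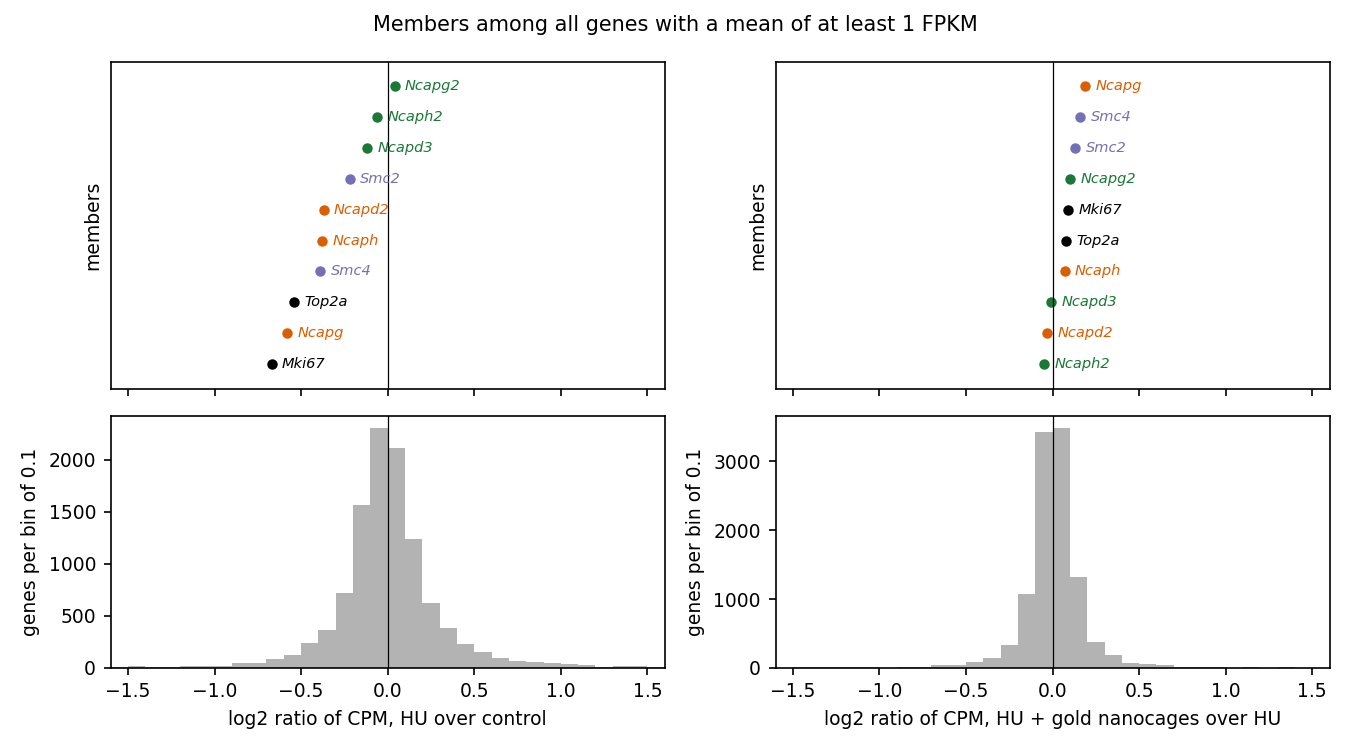
Log2 ratios of CPM of the 10 genes (points, top) and of the 10849 genes with a mean of at least 1 FPKM (histogram, bottom), for HU over control (left) and HU with nanocages over HU (right). In HU over control the points reach from Mki67 at -0.67 to Ncapg2 at 0.04, and in the nanocage comparison they span -0.05 to 0.19.

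HU with nanocages was then set against HU alone, which bears on any effect of the nanocages in cells that receive the drug. Several of these genes were slightly higher with nanocages and none was lower beyond counting error. The 6 of 10 that were higher compare with 8.35% of all genes, and 7.78% of all genes were lower. Among the genes with at least as many reads on average as Ncapg, 13.8% were higher. No gene of the 10 differed by 1.5-fold in either direction, beside 1.36% of all genes higher and 1.32% lower. The median log2 ratio was 0.08, beside 0.00 for all genes.

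The largest ratio was that of Ncapg, 1.14-fold higher with nanocages (1.06 to 1.22), at 12.3 against 10.8 FPKM. Smc4 was 1.11-fold higher (1.06 to 1.17) and Smc2 was 1.10-fold higher (1.05 to 1.15), so both core subunits moved alike, and their read ratio was within counting error of that in HU (1.02, 0.951 to 1.09). Ncapg2 was 1.07-fold higher (1.02 to 1.13), Mki67 1.06-fold (1.03 to 1.09) and Top2a 1.05-fold (1.02 to 1.09). Ncapd2 (0.981, 0.940 to 1.02), Ncaph (1.05, 0.984 to 1.12), Ncapd3 (0.992, 0.947 to 1.04) and Ncaph2 (0.965, 0.916 to 1.02) were within counting error.

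The summed balance of the complexes and that of the topoisomerases were within counting error of HU. The ratio of condensin I to condensin II reads was 0.837 with nanocages and 0.821 in HU, a change of 1.02 (0.976 to 1.06). Of the pairs of related subunits, Ncaph to Ncaph2 rose just beyond counting error, from 0.622 to 0.677 or 1.09-fold (1.00 to 1.18 after rounding). The ratios of Ncapg to Ncapg2 (1.07, 0.978 to 1.16) and Ncapd2 to Ncapd3 (0.988, 0.927 to 1.05) were within it. The ratio of Top2a to Top2b reads was 2.88 and 2.86, a change of 1.01 (0.949 to 1.07). Relative to Smc2, however, Ncaph2 was 1.13-fold lower with nanocages (1.06 to 1.22), Ncapd2 1.12-fold lower (1.05 to 1.19) and Ncapd3 1.10-fold lower (1.03 to 1.18). These ratios to Smc2 were added after the values had been seen. The ratios of the single pairs of related subunits, of Mki67 to Top2a and of Top2a to the condensins were not planned either. Planned were the summed condensin I to condensin II ratio and that of Top2a to Top2b.

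HU with nanocages against control, which shares its control library with the first comparison, had 9 genes lower and 1 higher than counting error. Of all genes, 20.1% were lower and 19.6% higher. Among the genes with at least as many reads on average as Ncapg, 30.2% were lower and 26.1% higher. Of the 10 genes, the 1 that was higher was Ncapg2, 1.10-fold (1.04 to 1.16). Mki67, at a ratio of 0.665 (0.646 to 0.685), was the only gene of the 10 at least 1.5-fold lower, beside 3.24% of all genes. Its interval, 1.46-fold to 1.55-fold lower, includes 1.5-fold. None of the 10 was 1.5-fold higher, beside 5.28%. Top2a was 1.38-fold lower (1.34 to 1.42), Ncapd2 1.32-fold (1.26 to 1.37), Ncapg 1.31-fold (1.22 to 1.40) and Ncaph 1.23-fold (1.16 to 1.32). Smc4 was 1.17-fold lower (1.12 to 1.23) and Smc2 1.06-fold (1.01 to 1.11), while Ncapd3 (1.09-fold) and Ncaph2 (1.08-fold) were nearest to control among the other lower genes. The ratio of condensin I to condensin II reads was 1.26-fold lower than in control (1.21 to 1.32).

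Of 14 regulators and partners of condensin and topoisomerase II, 10 were lower and 1 higher than counting error in HU, beside 20.1% and 18.7% of all genes. At least 1.5-fold lower were 6 of them, beside 3.12% of all genes, and their median log2 ratio was -0.45, beside -0.01. Plk1, a kinase that phosphorylates condensin, had 64.6 FPKM in control, 13.0 in HU and 13.2 with nanocages, 4.96-fold lower in HU (4.52 to 5.45). Ccnb1, the cyclin that partners CDK1 in mitosis, was 2.21-fold lower (2.10 to 2.33), at 58.6, 26.5 and 25.3 FPKM. Kif22, a chromosome-arm kinesin, was 1.97-fold lower (1.82 to 2.14). Akap8, an anchoring protein gene, was 1.14-fold higher (1.08 to 1.20). With nanocages against HU, 1 of the 14 was higher and none lower than counting error, which is near the 8.35% of all genes that were higher.

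Among cohesin genes, those for shugoshins, separase and securin were furthest below control. Of 18 genes of cohesin and its regulators, 10 were lower and none higher than counting error in HU, beside 20.1% and 18.7% of all genes. Lower by at least 1.5-fold were 3, beside 3.12%, and the median log2 ratio was -0.13. The 3 were the shugoshin genes Sgo2a, 2.76-fold lower (2.30 to 3.32), and Sgo1, 2.16-fold lower (1.87 to 2.48), which protect cohesin at centromeres, and the separase gene Espl1, 1.82-fold lower (1.73 to 1.93). Pttg1, which encodes the separase inhibitor securin, was 1.47-fold lower (1.33 to 1.62). The cohesin SMC genes Smc1a (1.01, 0.967 to 1.05) and Smc3 (0.991, 0.937 to 1.05) were within counting error, and the intervals of Smc2 and Smc4 lay below theirs. Rad21, the kleisin gene of cohesin, was however lower, at a ratio of 0.778 (0.748 to 0.809), beside 0.766 (0.729 to 0.805) for Smc4. With nanocages against HU, 6 of the 18 were higher, beside 8.35% of all genes, and none was lower, beside 7.78%.

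No gene of the third SMC complex or of the other topoisomerases differed by 1.5-fold in HU. Of 6 genes of the SMC5/6 complex, which acts in DNA repair, none was lower and 2 were higher than counting error (median log2 ratio 0.11), beside 20.1% and 18.7% of all genes. The 2 were Nsmce4a, 1.14-fold (1.06 to 1.23), and Smc6, 1.10-fold (1.03 to 1.18). Of the 5 other topoisomerase genes, 1 was lower and 2 were higher (median -0.01), and with 5 genes the 1 that was lower is at the share of all genes. Top3a, which acts with the BLM helicase, was 1.23-fold lower (1.10 to 1.37), and the mitochondrial Top1mt was 1.16-fold higher (1.03 to 1.30).

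Among 10 partners of Ki-67 and genes of the perichromosomal layer, 2 were lower and 5 higher than counting error in HU (median log2 ratio 0.06). The 2 that were lower are at the share of all genes, 20.1%, and 18.7% of all genes were higher. Cdca2, which encodes Repo-Man, a phosphatase targeting subunit on mitotic chromosomes, was 2.07-fold lower (1.91 to 2.23), at 19.8, 9.56 and 9.70 FPKM in control, HU and HU with nanocages. Kif15, a spindle kinesin that binds Ki-67, was 1.18-fold lower (1.11 to 1.26). The 5 that were higher are nucleolar genes, among them Nifk, which binds the forkhead-associated domain of Ki-67, at 1.09-fold (1.03 to 1.15) and Bop1, a ribosome biogenesis factor, at 1.09-fold (1.05 to 1.14). Rrs1 (1.05, 1.000 to 1.10) and Rrp1 (1.02, 0.971 to 1.06), also nucleolar, were within counting error.

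Genes with a profile close to a given gene were sought by the distance between their pairs of log2 ratios to control (HU and HU with nanocages), over 3 libraries and 7726 other genes with a mean of at least 5 FPKM. Closest to Top2a were Fastkd1, Snord89 and Dpp7, at distances of 0.0136 to 0.0276. Closest to Mki67 were the centriole genes Poc5 and Stil and the pseudogene Rpl35a-ps3, at 0.0133 to 0.0174. Within a distance of 0.1 lay 48 genes for Top2a and 26 for Mki67. Ncapd3, the condensin II gene set beside them, had 1533 genes within that distance, the nearest being Thoc2, Tmem106b and Vdac2. With 3 libraries such closeness is easily reached and describes values only.

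The genes lie on 10 different chromosomes of mm10, and some overlap other genes. Smc4, on chromosome 3 at 69004738 to 69034623, contains Mir15b and Mir16-2, which had no reads in any library, a count that allows up to 3 reads. The level of the mature miRNAs was not measured. Trim59, a ubiquitin ligase gene on the opposite strand that lies 665 bases from Smc4, had 11.8 FPKM in control, 4.52 in HU and 5.81 with nanocages. It was 2.62-fold lower in HU than in control (2.28 to 3.02) and 1.28-fold higher with nanocages than in HU, the same directions as Smc4. Ift80, 168 bases from Smc4, was 1.34-fold lower in HU (1.16 to 1.55). Mrpl51, 100 bases from Ncapd2, had a ratio of HU to control of 0.876 (0.808 to 0.948), the direction of Ncapd2. Vps26b, 110 bases from Ncapd3, was within counting error (0.973, 0.913 to 1.04). Lmf2, 60 bases from Ncaph2, was 1.12-fold higher in HU (1.02 to 1.22), while Ncaph2 was within counting error.

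Ncapg and Ncaph2 share exonic bases with protein-coding genes on the opposite strand. Ncapg, on chromosome 5 at 45669919 to 45700546, shares 944 exonic bases with Lcorl, which had 465, 498 and 538 reads in control, HU and HU with nanocages. Ncaph2, on chromosome 15 at 89355719 to 89372826, shares 535 exonic bases with Tymp, which had 195, 380 and 374 reads. It also shares 829 exonic bases with Sco2, which had 1 read in HU and none in the other libraries. Whether the counting used strand is not given in the sources used here, so it is unknown whether reads of these pairs were told apart where they overlap, and the effect on Ncapg and Ncaph2 was not tested. Lcorl was 1.25-fold lower in HU (1.10 to 1.42), and Tymp was 1.46-fold higher (1.22 to 1.74).

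Top2a lies on chromosome 11 at 98992943 to 99024189 and Mki67 on chromosome 7 at 135689784 to 135716361. In the deposited annotation, 8 of the 10 genes carry the term chromosome condensation, all but Ncapg and Mki67. The term mitotic chromosome condensation is given to 6, Ncapg among them. The term condensin complex is given to 5, the core and condensin I genes, and to none of the condensin II-specific genes. Condensed chromosome is given to 6, among them Top2a and Mki67.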

How the data were processed

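RNA of 3 libraries, 1 per condition, was analysed. The authors deposited a read count per gene and library, not normalized, and FPKM values, which equal count over exonic gene size and summed count within 0.005 for 100.0% of genes. The other deposited value used is exonic gene size in bases. The submitters' processing notes name HISAT2 2.0.1 and HTSeq 0.6.1 among the tools, and mm10 as the build. The sources used here do not give the annotation release, the strand setting or the treatment of shared reads.

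Ratios of CPM and exact (Clopper-Pearson) 95% intervals were computed with scipy 1.17.1. The code was run on simulated independent Poisson counts, the model that the intervals assume. That run cannot show the effect of dependent reads or of spread between cultures. Ratios of 2 genes within libraries have exact conditional odds ratio intervals. All genes with a mean of at least 1 FPKM served as background. Other library scales came from edgeR 4.0.16 (TMM, upper quartile) and DESeq2 1.42.0 (median of ratios). Positions came from GENCODE M21, which holds 98.0% of the gene identifiers, and promoters from RefSeq. Wapl, Sgo1, Sgo2a and Nsmce3 were matched by identifier. Named were the 10 genes, up to 4 genes per list with the largest log2 ratio in HU, the 3 nearest profiles of Top2a, Mki67 and Ncapd3, and protein-coding genes or miRNAs that overlap one of the 10 or lie within 1000 bases of it. A gene that this rule names, counted in its list, is not reported here. Smc1a, Smc3, Rad21, Akap8, Rrs1 and Rrp1 were named after their values were seen. The 10 genes and all lists were chosen with earlier results of these data known.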

Additional observations from a re-analysis of the deposited data

How the results depend on the processing

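No paired analysis was possible because each condition is 1 library, and no replicate was left out for the same reason. Under 4 other library scales, none of the log2 ratios of the 10 genes left its counting interval, and no scale moved the median of all genes by more than 0.01 on the log2 scale. A pseudocount of 5 FPKM moved 5 of 30 ratios out of their intervals, and pseudocounts of 1 and 0.1 moved none. No gene outside counting error changed direction. Mki67 in HU with nanocages against control sits at the 1.5-fold line: with pseudocounts of 1 or 5 FPKM, or a summed count without mitochondrial, ribosomal RNA and the 50 most counted genes, 0 of the 10 genes passed it.

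The background shares depend on the filter. With a mean of at least 5 FPKM, 1.72% of genes were at least 1.5-fold lower and 2.64% higher in HU against control, 0.220% and 0.271% with nanocages against HU, and 1.78% and 2.87% with nanocages against control. With a mean count of at least 1000 reads, these pairs were 1.29% and 2.06%, 0.0227% and 0.0680%, and 1.29% and 2.22%, and 12.1% were lower than counting error with nanocages against HU. With any gene that had at least 1 read, 12.9% and 19.0%, 14.5% and 14.9%, and 12.9% and 21.4% passed 1.5-fold, and 12.3% and 12.3%, 4.91% and 5.47%, and 12.4% and 12.9% were lower and higher than counting error.

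With at least 1000 reads, 6 cohesin genes were lower than counting error in HU and 5 with nanocages against control, 1 by 1.5-fold in each. Of the other topoisomerase genes 0 were lower and 1 higher in HU, and 1 SMC5/6 gene was higher with nanocages against HU, as with at least 5 FPKM. These filters remove genes from the lists, so the counts are out of fewer genes than the full lists hold. Both filters also left larger shares of all genes lower and higher than counting error, in every comparison, than a mean of at least 1 FPKM. The counts alone therefore cannot show whether a list differs from all genes under these filters. Median-of-ratios and upper quartile scales put 1 cohesin gene lower than counting error with nanocages against HU, beside 8.77% and 9.48% of all genes.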
